A study of Mus musculus with 4 samples.

Results

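Syndecans and glypicans are the cell surface proteoglycans that carry heparan sulfate chains, and 8 of their genes were followed from young to aged satellite cells, the stem cells of skeletal muscle. The members were Sdc1, Sdc2, Sdc3, Sdc4, Gpc1, Gpc3, Gpc4 and Gpc6. They were taken through every probe set that the array annotation assigns to exactly 1 of these genes, which gave 22 of the 45101 probe sets in the table, 13 for the syndecans and 9 for the glypicans. Cells came from hindlimb muscle of C57BL/6J mice, aged 3 to 6 months in the young group and 20 to 25 months in the aged group, and no transgene or treatment is named for either. The series title sets the comparison in work on the self-renewal of aged muscle stem cells. Each group held 2 pools of RNA, with 1 Affymetrix array per pool. Pooling is given as 4 to 8 mice in the series text and as 6 to 8 in the sample text. Cells of both ages were sorted for syndecan-4 protein on their surface, so every pool was selected on the product of one of the members, and a difference in Sdc4 is a difference in RNA among cells that had passed that gate.

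Syndecans span the membrane and carry their chains near the outer end of the core protein, while glypicans are tied to the membrane by a lipid anchor. The sulfated chains bind fibroblast growth factors, hepatocyte growth factor, Wnt proteins and fibronectin, and present them to their receptors. In muscle, syndecan-3 and syndecan-4 are known markers of satellite cells in mice, and mice lacking either have altered satellite cell behaviour after injury.

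Deposited values are taken as log2 (the base is not stated) and are centred so that the median of a probe set across the 4 arrays is 0. They therefore show how a probe set differs between pools but not how abundant its RNA is, and no member can be ranked against another by level. It also means that the satellite cell label could not be checked through the level of its defining markers. In RNA from pooled cells, fewer cells of a type and less RNA per cell cannot be told apart. Array medians ran from -0.07 to 0.05. A gene's value is the mean of its probe sets. Differences are aged minus young on the log2 scale, with the standard error of the limma fit after ± (n = 2 pools per age).

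Sdc4 was the syndecan with the largest positive difference and Gpc4, a glypican known to bind growth factors and to be expressed by stem and progenitor cells, the member with the largest negative one. Sdc4 was 2.33-fold higher in aged cells and Gpc4 was 2.43-fold lower. Neither passed the threshold of 0.05 after Benjamini-Hochberg adjustment over all 18193 genes with limma. The other 6 genes differed by at most 0.52 in either direction. By limma 0 of the 22 probe sets and 0 of the 8 genes passed after adjustment, against a background of 0 percent of all probe sets and 0 percent of all genes. At an unadjusted p under 0.05 there was 1 gene, Gpc4, where 9.04 percent of all genes reached that level. Neither Gpc4 probe set reached it alone (unadjusted p = 0.0757 and 0.574 with limma). Among probe sets there were 2, one of Sdc2 and one of Sdc3, where 7.3 percent of all probe sets did.

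The upstream sequences of these 2 genes are shown because they are the members that stood furthest apart between ages, in opposite directions. They are the 250 bases before the annotated start, from RefSeq on GRCm38.p6, both from the minus strand and written 5′ to 3′. Sdc4 lies at chr2:164443189-164443438 and Gpc4 at chrX:52164924-52165173. Capitals mark matches, on either strand, to the GC box GGGCGG (bound by Sp1-type factors) or to the kappa-B type motif GGGNNTTCC (of the NF-kappa-B family).
Sdc4: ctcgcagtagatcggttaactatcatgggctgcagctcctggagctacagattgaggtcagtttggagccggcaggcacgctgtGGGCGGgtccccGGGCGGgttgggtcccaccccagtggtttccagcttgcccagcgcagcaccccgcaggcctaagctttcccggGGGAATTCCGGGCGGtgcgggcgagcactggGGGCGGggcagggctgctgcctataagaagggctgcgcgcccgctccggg
Gpc4: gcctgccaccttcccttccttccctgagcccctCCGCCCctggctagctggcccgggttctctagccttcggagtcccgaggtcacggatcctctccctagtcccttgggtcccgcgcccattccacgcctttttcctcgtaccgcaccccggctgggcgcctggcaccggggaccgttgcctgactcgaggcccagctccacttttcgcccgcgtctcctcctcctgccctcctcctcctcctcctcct
The Sdc4 sequence held 4 GC boxes and 1 kappa-B type match, which begins 81 bases before the start and runs directly into a GC box. The Gpc4 sequence held 1 GC box. Upstream sequences of 5 members were matched (also Sdc1, Sdc3 and Gpc3), and all 5 held a GC box, as did 32.7 percent of 32851 upstream sequences of the same length in the table. The kappa-B type match was found in Sdc4 alone among the 5, and in 4.98 percent of the table. The E-box CANNTG, the motif of the myogenic factors, was present in Sdc1 alone among the 5 and in 66.2 percent of the table. The 5 sequences held 66.0 (Sdc1) to 76.4 (Sdc3) percent G or C, and they were not set against sequences of like base content. The arrays measured no binding, and the motifs were chosen with the values known.

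**Figure D1:**
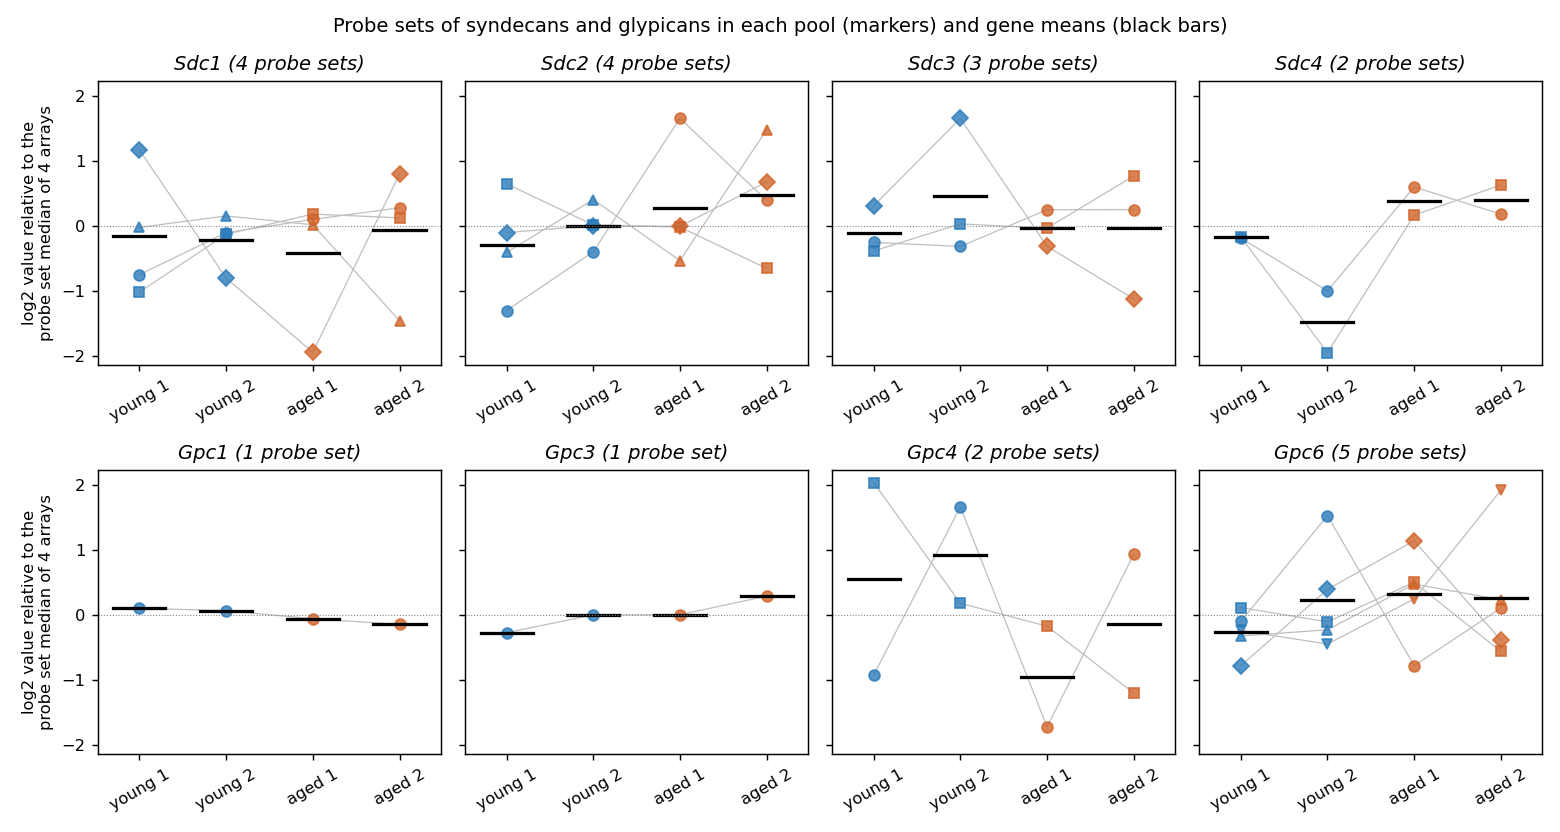
Log2 value of each probe set, relative to its median over the 4 arrays (vertical axis), in each pool (horizontal axis). Markers are single probe sets, with 1 shape per probe set within a gene and blue for young and orange for aged, grey lines join the values of 1 probe set, and black bars are gene means. Both Sdc4 probe sets are lowest in young 2, while probe sets of Sdc1, Sdc2, Sdc3 and Gpc6 go in opposite directions.

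Among the syndecans, Sdc4 encodes the widely expressed member whose cytoplasmic tail binds protein kinase C alpha at focal adhesions. Its gene values were -0.18 in young 1, -1.47 in young 2, 0.38 in aged 1 and 0.41 in aged 2. Both aged pools lay above both young pools, and young 2 stood well below young 1. The aged pools were close together only in the gene mean (SD 0.017). The probe sets ranked the aged pools in opposite order (SD 0.29 for 1417654_at and 0.33 for 1448793_a_at) and partly cancelled. The difference was 1.22 ± 0.53 (95% interval -0.09 to 2.54, adjusted p = 0.593 with limma). It was 0.56 between the pools numbered 1 and 1.88 between the pools numbered 2. Without young 2 the difference was 0.57, and without young 1 it was 1.87, so its size depends on which young pool is kept.

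Both Sdc4 probe sets, designed on the same accession, pointed the same way. For 1417654_at the values were -0.18 and -0.999 in the young pools and 0.60 and 0.18 in the aged pools, a difference of 0.98 ± 0.49 (adjusted p = 0.807 with limma). For 1448793_a_at they were -0.17 and -1.95 in the young pools and 0.17 and 0.63 in the aged pools, a difference of 1.46 ± 0.71 (adjusted p = 0.803). Without young 2 they differed by 0.58 and 0.57. Sdc4 was the only syndecan whose probe sets all had the same sign.

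Sdc3 encodes a syndecan of neural tissue and of satellite cells, where it has been linked to Notch signalling in mice. Its gene values were -0.11 in young 1, 0.46 in young 2, -0.03 in aged 1 and -0.03 in aged 2. The ages overlapped, and the difference was -0.21 ± 0.39 (95% interval -1.19 to 0.77, adjusted p = 0.948 with limma). This mean hides probe sets that disagreed. For 1450027_at the values were 0.31 and 1.66 in the young pools and -0.31 and -1.12 in the aged pools, so it was 3.25-fold lower in aged cells (-1.70 ± 0.64, unadjusted p = 0.0477, adjusted p = 0.677 with limma). Without 1 pool that difference ran from -2.37 (without young 1) to -1.03 (without young 2, unadjusted p = 0.195), and with the replicate block its unadjusted p was 0.0902. For 1420853_at, designed on the same accession, they were -0.25 and -0.32 in the young pools and 0.25 and 0.25 in the aged pools, a difference of 0.54 ± 0.39. In neither of these did the ages overlap, and their directions were opposite. The third, 1436482_a_at, differed by 0.55 ± 0.48 with overlapping ages.

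Sdc2 encodes the syndecan typical of fibroblasts and other mesenchymal cells. Its gene values were -0.29 in young 1, 0.0082 in young 2, 0.28 in aged 1 and 0.48 in aged 2. Both aged pools lay above both young pools, and the difference was 0.52 ± 0.37 (95% interval -0.41 to 1.44, adjusted p = 0.814 with limma). The probe set 1417011_at stood at -1.30 and -0.40 in the young pools and 1.66 and 0.40 in the aged pools. It was 3.67-fold higher in aged cells (1.88 ± 0.64, unadjusted p = 0.0342, adjusted p = 0.623 with limma), the largest positive difference among the 22, and 1.25 without aged 1 (unadjusted p = 0.140). The 2 other probe sets designed on the same accession did not share that size, with -0.67 ± 0.48 for 1417012_at, whose ages did not overlap, and 0.48 ± 0.81 for 1448545_at, whose ages did. The fourth, 1431474_at, differed by 0.38 ± 0.45.

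Sdc1 encodes the syndecan of epithelia and plasma cells. Its gene values were -0.15 in young 1, -0.22 in young 2, -0.41 in aged 1 and -0.06 in aged 2, with overlapping ages and a difference of -0.05 ± 0.37 (95% interval -0.97 to 0.87, adjusted p = 0.987 with limma). The probe sets split evenly. Higher in aged cells, with no overlap, were 1415943_at (0.62 ± 0.44) and 1415944_at (0.73 ± 0.48). Lower on average, with overlap, were 1448158_at (-0.79 ± 0.62) and 1437279_x_at (-0.76 ± 1.17), the second of which ran from -1.95 in aged 1 to 1.17 in young 1. The sign of the gene difference turned to 0.055 with quantile normalization and to 0.38 with the median of probe sets, so no direction is given for Sdc1.

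Among the glypicans, Gpc4 values were 0.55 in young 1, 0.92 in young 2, -0.95 in aged 1 and -0.14 in aged 2. Both aged pools lay below both young pools. The difference was -1.28 ± 0.44 (95% interval -2.39 to -0.17, unadjusted p = 0.0303, adjusted p = 0.462 with limma), and it was -1.51 between pools numbered 1 and -1.06 between pools numbered 2. Without 1 pool it ran from -1.69 to -0.87, the latter without aged 1. Its unadjusted p was 0.0608 with quantile normalization, 0.0663 without young 1 and 0.133 without either young 2 or aged 1. Taken from the probe set with the largest SD, 1421088_at, it was -0.77.

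The Gpc4 probe sets shared the sign of their difference but not their pattern over pools. Within each age their deviations ran in opposite directions and partly cancelled in the mean. The standard error of the gene (0.44) was thus below that of either probe set. For 1436514_at the values were 2.03 in young 1, 0.18 in young 2, -0.18 in aged 1 and -1.21 in aged 2, so the ages did not overlap (-1.80 ± 0.79, adjusted p = 0.756 with limma). Without young 1 this difference was -0.87, and without young 2 it was -2.73. For 1421088_at they were -0.93 in young 1, 1.66 in young 2, -1.73 in aged 1 and 0.93 in aged 2. Here pools numbered 2 were high at both ages and pools numbered 1 low, and the difference was -0.77 ± 1.27 (adjusted p = 0.968). Its difference was -0.80 within number 1 and -0.73 within number 2.

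Gpc3, the neighbouring gene of Gpc4 on chromosome X, encodes a glypican of growing tissues that binds Hedgehog and Wnt proteins and limits body size. Its single probe set, 1450990_at, stood at -0.28 in young 1, -0.00037 in young 2, 0.00037 in aged 1 and 0.29 in aged 2. The aged pools lay above the young ones by a margin far below the spread within an age. The difference was 0.28 ± 0.37 (95% interval -0.65 to 1.21, adjusted p = 0.917 with limma), opposite in sign to that of Gpc4.

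Gpc1, known from turkey satellite cells as a co-receptor of fibroblast growth factor 2, had the narrowest spread of the 8 between young pools. Its single probe set, 1417389_at, stood at 0.10 and 0.06 in the young pools and -0.06 and -0.15 in the aged pools. The ages did not overlap, but the difference was small, at -0.19 ± 0.36 (95% interval -1.07 to 0.70, adjusted p = 0.948 with limma).

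Gpc6, related to Gpc4 in sequence and known for roles in bone growth and at synapses, had 5 probe sets. Its gene values were -0.27 in young 1, 0.22 in young 2, 0.31 in aged 1 and 0.26 in aged 2. The aged pools lay above the young pools, narrowly in the case of young 2, and the difference was 0.31 ± 0.38 (95% interval -0.65 to 1.27, adjusted p = 0.910 with limma). Without young 1 it was 0.06. Of its probe sets, 1441438_at was highest in aged cells (1.43 ± 0.67), with -0.24 and -0.45 in the young pools and 0.24 and 1.92 in the aged pools. Without aged 2 it stood at 0.59. The others were 1437417_s_at (0.63 ± 0.39, no overlap) and, each with overlapping ages, 1428774_at (0.57 ± 0.74), 1419689_at (-0.03 ± 0.52) and 1419688_at (-1.05 ± 0.72).

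**Figure D2:**
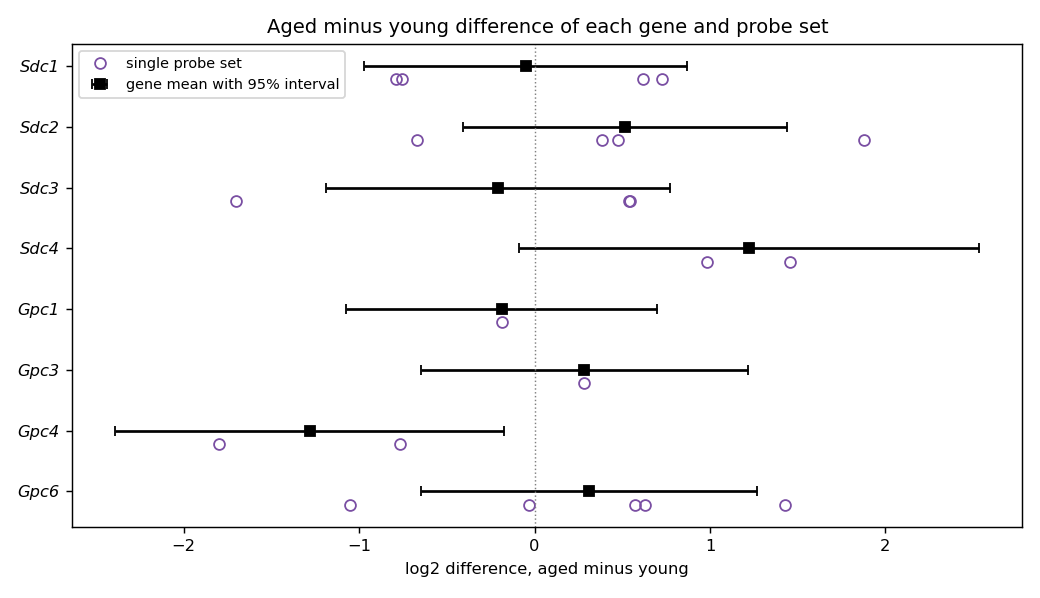
Log2 difference, aged minus young (horizontal axis), for each of the 8 genes (vertical axis). Black squares are gene means with 95% intervals from limma (n = 2 pools per age), and open circles are single probe sets. Among gene means, the interval of Gpc4 (-2.39 to -0.17) alone leaves out 0, though its probe sets differ in pattern over pools. Sdc3 has probe sets from -1.70 to 0.55.

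Over the 22 probe sets, 13 were higher and 9 lower in aged cells, where 54.4 percent of all probe sets were higher. The median difference was 0.43, against 0.06 over all 45037 probe sets fitted. Ages did not overlap in 13 of the 22, against a background of 33.8 percent of all probe sets. Aged pools lay above in 9 (background 19 percent) and below in 4 (background 14.8 percent). At the level of genes 4 were higher and 4 lower (53.8 percent of all genes were higher), with a median of 0.12 against 0.05 over all genes. With the median of probe sets in place of the mean, Sdc1 (0.38) and Sdc3 (0.22) also stood above 0. Ages did not overlap in 6 of the 8 genes, where 36.8 percent of all genes had no overlap. Probe sets of 1 gene share their RNA and often their design accession, so these counts are not of independent features. Syndecan probe sets had a median of 0.54 and glypican probe sets of -0.03.

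Pools of the same age were about as far apart in these probe sets as over the whole array. The root mean square difference over the 22 probe sets was 1.11 for the young pair and 1.23 for the aged pair, and 1.23 to 1.31 between pools of different age. Over all probe sets it was 1.05, 1.16 and 1.13 to 1.26. Averaging to genes brought the members closer together, with 0.57 between young pools and 0.34 between aged pools, where all genes had 0.84 and 0.91. Probe sets that deviated in opposite directions, as in Gpc4 and in the aged pools for Sdc4, partly cancel in such means. The lower values therefore do not show that the pools agreed better in these genes. Between ages the 8 genes lay 0.51 to 0.96 apart, and the distances from young 2, the low pool for Sdc4, were the larger ones (0.96 to aged 1 and 0.81 to aged 2).

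**Figure D3:**
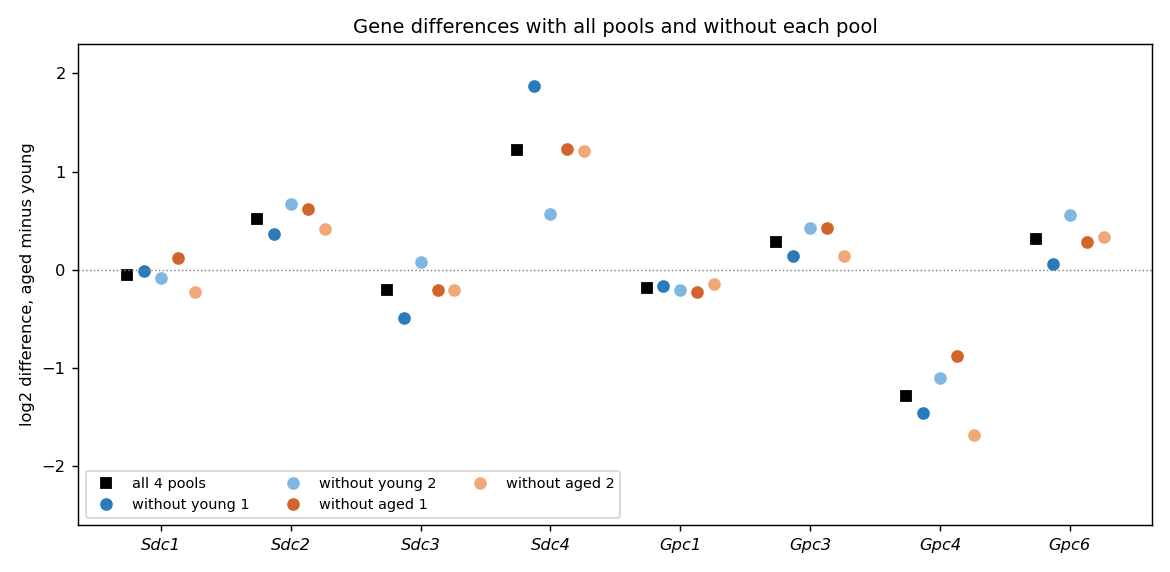
Log2 difference, aged minus young (vertical axis), of each gene (horizontal axis) with all 4 pools (black squares) and with 1 pool left out (circles, coloured by the pool left out). Sdc4 ranges from 0.57 without young 2 to 1.87 without young 1, Gpc4 stays between -1.69 and -0.87, and Sdc1 and Sdc3 lie on both sides of 0.

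Genes whose 4 gene values lay nearest those of Sdc4, by Euclidean distance over the 4 arrays, were Vpreb3 (distance 0.177), Fam219aos (0.200) and Lpl (0.225), the lipoprotein lipase, whose protein itself binds heparan sulfate. Nearest to Sdc3 were Cemip (0.0382), a protein of hyaluronan breakdown, Sowaha (0.0502) and Crygn (0.0588). With 4 centred values per gene, many genes lie close by.

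The remaining glypicans and other proteins that carry heparan sulfate were mostly higher in aged cells, without passing the adjusted threshold. Of 8 in this list 7 were higher and 1 lower, with a median of 0.44, where 53.8 percent of all genes were higher. Ages did not overlap in 6 of the 8 (5 higher and 1 lower), where 36.8 percent of all genes had no overlap. Gpc5, the neighbour of Gpc6 on chromosome 14, stood at 0.62 ± 0.47 and Gpc2 at 0.48 ± 0.43 (limma, adjusted p = 0.829 and 0.862). Without 1 pool, Gpc5 fell to as low as 0.11 and Gpc2 to 0.13. Agrn, which encodes agrin, the organiser of the neuromuscular junction, was the lower one (-1.07 ± 0.49, adjusted p = 0.620, and -0.61 without young 1). Cd44, the hyaluronan receptor (0.71 ± 0.40), and Nrp1, a receptor of semaphorins and vascular growth factor (0.60 ± 0.39), were among those higher with no overlap.

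Enzymes that build heparan sulfate showed small differences, while a pair of genes that supply its precursors were several-fold lower in aged cells. Ugp2, which makes UDP-glucose for glycogen and for the sugar precursors of the chains, stood at 0.88 and 1.06 in the young pools and -1.27 and -1.35 in the aged pools. It was 4.86-fold lower (-2.28 ± 0.36, adjusted p = 0.150 with limma). Slc35b3, which encodes a carrier of the sulfate donor into the Golgi, stood at 1.46 and 1.02 in the young pools and -1.02 and -1.58 in the aged pools. It was 5.83-fold lower on its single probe set (-2.54 ± 0.41, adjusted p = 0.150). Papss2, which makes that donor, stood at 0.92 ± 0.45 (adjusted p = 0.652, and 0.48 without aged 1). Slc35b2, another gene of this list, was also higher, with no overlap (0.46 ± 0.36, adjusted p = 0.833 with limma). Of the 6 supply genes 3 were higher and 3 lower, and 2, Ugp2 and Slc35b3, had an unadjusted p under 0.05, both lower, where 6.19 percent of all genes were lower at that level.

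Genes that start the chain were divided, with 3 of 6 higher and a median of -0.11. Those with the smallest p-values were the xylosyltransferase Xylt2 (-0.59 ± 0.43), the galactosyltransferase B3galt6 (0.36 ± 0.38) and the xylose kinase Fam20b (-0.35 ± 0.41). Of 5 chain growth genes 4 were higher, with a median of 0.50. Ext1 and Ext2, which together form the polymerase, stood at 0.50 ± 0.49 and 0.17 ± 0.38, Extl3 at 0.58 ± 0.53 and Extl2 at 0.67 ± 0.69, and in all 5 the ages overlapped, where 36.8 percent of all genes had no overlap. Of 15 listed chain modification genes 13 were analysed, and 10 of the 13 were higher, with a median of 0.25, where 53.8 percent of all genes were higher. They included the sulfotransferases Hs6st2 (0.67 ± 0.48) and Hs2st1 (0.49 ± 0.38) and the epimerase Glce (0.52 ± 0.50).

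Genes listed for the remodelling or breakdown of the chains gave no adjusted p under 0.84 with limma. Of 5 listed for remodelling outside the cell, not all of which act on the chains themselves, 3 were higher. The endosulfatases Sulf1 and Sulf2 stood at 0.30 ± 0.46 and -0.39 ± 0.72, and heparanase, Hpse, at 0.21 ± 0.37. All 6 lysosomal enzymes had a difference of 0 or above, with a median of 0.08 and overlapping ages in each, where 53.8 percent of all genes were higher and 36.8 percent had no overlap. The largest were Naglu (0.80 ± 0.66), Hgsnat (0.45 ± 0.74) and Gusb (0.08 ± 0.42).

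Genes listed as partners of the syndecan tail, whether or not their proteins bind it directly, lay on both sides of 0. Of 12, 8 were higher and 4 lower, with a median of 0.20 and no unadjusted p under 0.05 by limma, where 9.04 percent of all genes had one. Ezr, the membrane-to-actin linker ezrin, stood at 0.86 ± 0.37, Rhog, a small GTPase that acts with syndecan-4 in migration, at -1.51 ± 0.76, and the tyrosine kinase Fyn at 0.99 ± 0.62. Without young 1, Rhog stood at -0.41, and without aged 1, Fyn stood at 0.16. Proteases that shed syndecans or cut glypican cores included 7 of 10 that were higher, with a median of 0.27, where 53.8 percent of all genes were higher. Pcsk7, a proprotein convertase, was 2.65-fold higher (1.40 ± 0.47, unadjusted p = 0.0270, adjusted p = 0.445 with limma), the matrix metalloproteinase Mmp2 stood at 1.28 ± 0.58 and Mmp9 at -0.54 ± 0.42. Each rested in part on 1 pool, with 0.89 for Pcsk7 without young 1, 0.65 for Mmp2 without aged 1 and -0.21 for Mmp9 without aged 2.

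Ligands and receptors that depend on the chains included 8 of 12 that were higher, with a median of 0.26. The Wnt7a receptor Fzd7, which forms a complex with syndecan-4 in mouse satellite cells, stood at 0.48 and 0.43 in the young pools and -0.31 and -1.13 in the aged pools. It was 2.25-fold lower (-1.17 ± 0.43, unadjusted p = 0.0375, adjusted p = 0.495 with limma), and the difference was -0.76 without aged 2. Hgf, the growth factor that activates satellite cells, stood at 0.82 ± 0.38 and its receptor Met at -0.02 ± 0.51. The receptors Fgfr1 and Fgfr4 stood at 0.48 ± 0.40 and 0.33 ± 0.39. Across these 10 lists of 83 genes, 59 were higher and 24 lower, where 53.8 percent of all genes were higher. The median was 0.25 against 0.05 over all genes. Ages did not overlap in 34.9 percent of the 83, near the 36.8 percent of all genes. At an unadjusted p under 0.05 there were 1 higher and 3 lower, where 2.85 percent and 6.19 percent of all genes were.

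**Figure D4:**
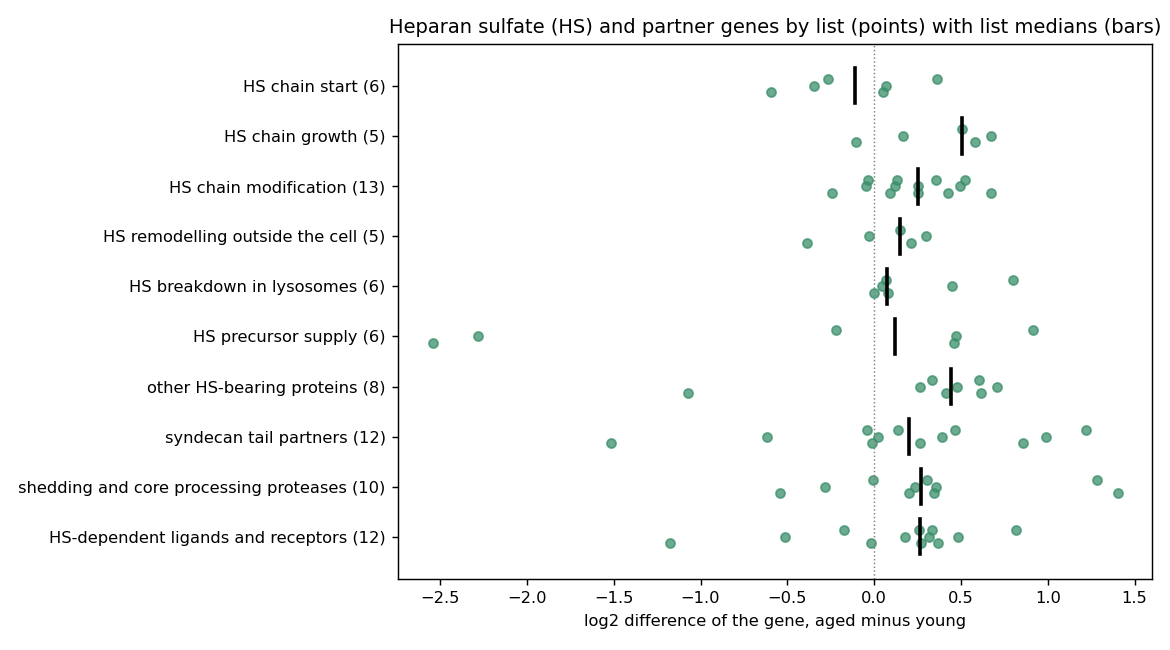
Log2 difference, aged minus young (horizontal axis), of 83 genes in 10 lists (vertical axis, with the number of genes measured). Points are genes and black bars list medians. Most points lie between -1 and 1, and Slc35b3 (-2.54) and Ugp2 (-2.28) stand apart on the lower side.

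Markers of satellite cells and of other cell types were read in the same pools. None of them passed the adjusted threshold with limma, and 53.8 percent of all genes were higher in aged cells. The mean over 15 mature fibre markers was 1.24 to 1.33 in the young pools and -1.43 to -1.35 in the aged pools, with 15 of 15 lower in aged cells. Macrophage markers were lower in 8 of 9 cases and endothelial markers in 6 of 8. Of the fibro-adipogenic progenitor markers, 8 of 9 were higher, with means of -0.44 to -0.37 in the young pools and 0.43 to 0.67 in the aged pools. Pericyte and smooth muscle markers were higher in 10 of 10, T cell markers in 5 of 5, B and plasma cell markers in 6 of 7 and Schwann cell markers in 5 of 5. Of the satellite cell markers 4 of 9 were higher (median -0.15), among them Pax7 at 2.31 ± 0.36 (adjusted p = 0.150 with limma). Several members are also expressed in these cell types, Sdc1 in plasma cells, Sdc2 in fibroblasts and Sdc3 in Schwann cells, and Ugp2 is abundant in muscle fibres. The part of these cell types in the differences of the members was not tested.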

How the data were processed

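The authors deposited 1 table of 45101 probe sets on 4 arrays, in log2 values centred so that each probe set has a median of 0 across arrays (within 5e-07 in every case). The base, background correction and normalization are not given in these sources, and higher is taken to mean more RNA. Per the labels' protocols, RNA went through a pair of linear T7 amplification rounds before biotin labelling.

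Gene names come from the platform annotation; Entrez IDs linked 34741 probe sets to current GRCm38.p6 symbols. Of 45037 probe sets that are no controls, 34945 carried 1 symbol, 932 several and 9160 none. Gene values are means over probe sets with 1 symbol (18193 genes). One further probe set, shared by Gpc2 and Gal3st4, was left out. Some listed genes were not analysed here, and counts are given over those that were. Ndst1 was to be named whatever its value, but it had no gene value.

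Probe sets and genes were each fitted whole with limma 3.58.1 in R 4.3.3 (lmFit, eBayes without trend, two-sided, Benjamini-Hochberg adjustment, threshold 0.05). Residual degrees of freedom were 2, with 3.56 prior ones for genes. With 2 pools against 2 the smallest exact permutation p is 0.333, so none was used. The number of arrays limits the precision. On simulated data with 18193 genes, changes of 1, 2 and 3 on the log2 scale were called in shares of 0.006, 0.232 and 0.866. The simulated noise was normal, with each gene's variance as moderated by eBayes, which narrows the spread of variances over genes. These shares therefore cannot be carried over to the real arrays and are likely too high for them. On the real arrays 0 genes were called (lowest adjusted p = 0.0998 with limma), although differences ran from -5.36 to 6.16.

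The members, lists and tests were chosen with earlier results of these data known. Named were all members and their probe sets, the 3 genes of smallest p in each partner list, Gpc2, Gpc5, Ext1, Ext2, Sulf1, Sulf2, Hpse, Fgfr1, Fgfr4, Met and Pax7, and the 3 genes nearest to Sdc4 and Sdc3. Slc35b2 is named besides, for comparison with Slc35b3. Of marker lists at most 2 genes each could be named, and only Pax7 is. Alternatives were other normalizations, eBayes settings and probe set summaries, a replicate block and leaving out each pool. Figures used matplotlib 3.10.9.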

Additional observations from a re-analysis of the deposited data

How the results depend on the processing

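No member passed the adjusted threshold under any of the 12 alternatives for genes (lowest adjusted p = 0.337 with limma, for Gpc4 with a variance trend) or the 9 for probe sets (lowest 0.371). Sdc2, Sdc4, Gpc1, Gpc3, Gpc4 and Gpc6 kept their direction under all 12. Over all features, eBayes with trend called 199 probe sets and 221 genes where the other settings called 0; a trend on the mean has no meaning in centred values. Under it 10 of the genes examined one by one passed, all of them markers or supply genes (among them Ugp2, adjusted p = 0.0368, Slc35b3, 0.0247, and Pax7, 0.0342). Leaving out 1 pool moved the 518 genes higher at an unadjusted p under 0.05 to between 281 (without young 2) and 668 (without aged 2), and the 1165 such probe sets to between 605 (without young 2) and 1861 (without aged 2). Counts of lower genes ran from 823 to 1082.

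Differences turned sign as follows. Sdc1 stood at 0.055 with quantile normalization, 0.38 with the median of probe sets and 0.19 without _x_at and _s_at probe sets, and ran from -0.22 to 0.12 without 1 pool. Sdc3 stood at 0.22 with the median of probe sets and ran from -0.49 to 0.076 without 1 pool. Without 1 pool, 1437279_x_at ran from -2.13 to 0.62, 1448545_at from -0.53 to 1.49, 1421088_at from -2.09 to 0.56, 1419689_at from -0.57 to 0.50 and 1428774_at from -0.19 to 1.34. Likewise Ext1 ran from -0.071 to 1.08, Extl2 from -0.12 to 1.46, Glce from -0.060 to 1.11, Sulf1 from -0.094 to 0.68, Sulf2 from -1.44 to 0.66, Naglu from -0.102 to 1.70, Hgsnat from -0.35 to 1.24, Gusb from -0.28 to 0.44, Ext2 from -0.065 to 0.40 and Met from -0.61 to 0.58. Sulf2 was 0.10 and Ext2 -0.14 without _x_at and _s_at probe sets, Hgf was -0.17 with the median of probe sets, and for the most variable probe set Gusb was -0.15 and Fgfr1 -0.23. The cause was not tested.

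With the replicate block the count of calls stayed at 0 for probe sets and genes, and adjusted p was 0.419 for Gpc4 and 0.549 for Sdc4. Pools share only a number; the deviations of same-numbered pools correlated at 0.134 over all probe sets. A filter on dim probe sets was not run, since centred values hold no level.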
